A study of Arabidopsis thaliana with 6 samples.

Results

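AT1G74470, which encodes geranylgeranyl reductase, and GSA1 (AT5G63570), which encodes a glutamate-1-semialdehyde aminotransferase, are genes of chlorophyll synthesis whose transcripts were measured in dry Arabidopsis thaliana seeds. They are 2 of the 13356 genes that the platform annotation ties to a probe set of their own, and each had 1 probe set among the 22746 that were tested. The pair was chosen by name with earlier results of these seeds known, so the contrast between genotypes that follows is a description of both genes and not evidence for either. The mutant was hda9-1, a T-DNA line (SALK_001723) of HISTONE DEACETYLASE 9, whose protein removes acetyl groups from histones, and the wild type was the accession Col. Plants of both genotypes grew in long days (16 h light, 22 °C; 8 h dark, 16 °C), and seeds were taken from ripe siliques 18 to 19 days after pollination. Each genotype had 3 biological replicates, every one a pool over several plants, on 1 Affymetrix ATH1 array apiece. The labels call the tissue dry seeds, whereas RNA is said to come from dry siliques in the design text. The mutant was represented by 1 allele, and no probe set was paired with HDA9 in the annotation used here, so that transcript was not analysed here.

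Chlorophyll is a tetrapyrrole made in plastids from glutamate. The aminotransferase encoded by GSA1 and by its paralogue GSA2 forms aminolevulinic acid, the precursor of chlorophyll, haem and the phytochrome chromophore. Later steps build the ring, insert magnesium and reduce protochlorophyllide in the light. Geranylgeranyl reductase acts on the side chain of the molecule and saturates the geranylgeranyl chain to the phytyl tail, which anchors chlorophyll in the membrane and is also built into tocopherols, the antioxidants of seed oil. Arabidopsis embryos are green in mid-maturation and lose their chlorophyll as the seed dries.

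The geranylgeranyl reductase gene was higher in hda9-1 seeds on every array, while GSA1 stood at almost the same level in both genotypes. AT1G74470 read 7.59, 7.86 and 7.77 in hda9-1 replicates 1, 2 and 3, against 6.19, 7.14 and 6.65 in Col replicates 1, 2 and 3, all in log2 units of the deposited values. The groups did not overlap, and the lowest mutant array lay 0.45 above the highest Col array, which was replicate 2. Its mean was 7.74 ± 0.14 in hda9-1 and 6.66 ± 0.48 in Col (SD, n = 3 each). The log2 difference, hda9-1 minus Col, was 1.08 with a standard error (SE) of 0.22 and a 95% interval of 0.56 to 1.59, a 2.11-fold higher level. Arrays of the same replicate number differed by 1.40, 0.72 and 1.11 for numbers 1, 2 and 3. The increase ranked 109 among all probe sets tested.

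GSA1 read 7.44, 7.18 and 7.46 in hda9-1 replicates 1, 2 and 3, against 7.40, 7.27 and 7.33 in Col replicates 1, 2 and 3. The Col values all lay within the range of the mutant values. Its mean was 7.36 ± 0.16 in hda9-1 and 7.33 ± 0.07 in Col (SD, n = 3 each). The log2 difference was 0.03 (SE 0.11), with a 95% interval of −0.22 to 0.27, which corresponds to 0.859-fold to 1.21-fold. Same-numbered arrays differed by 0.03, −0.09 and 0.14. The sign of so small a value cannot be read, and the interval allows changes up to those folds in either direction.

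**Figure D1:**
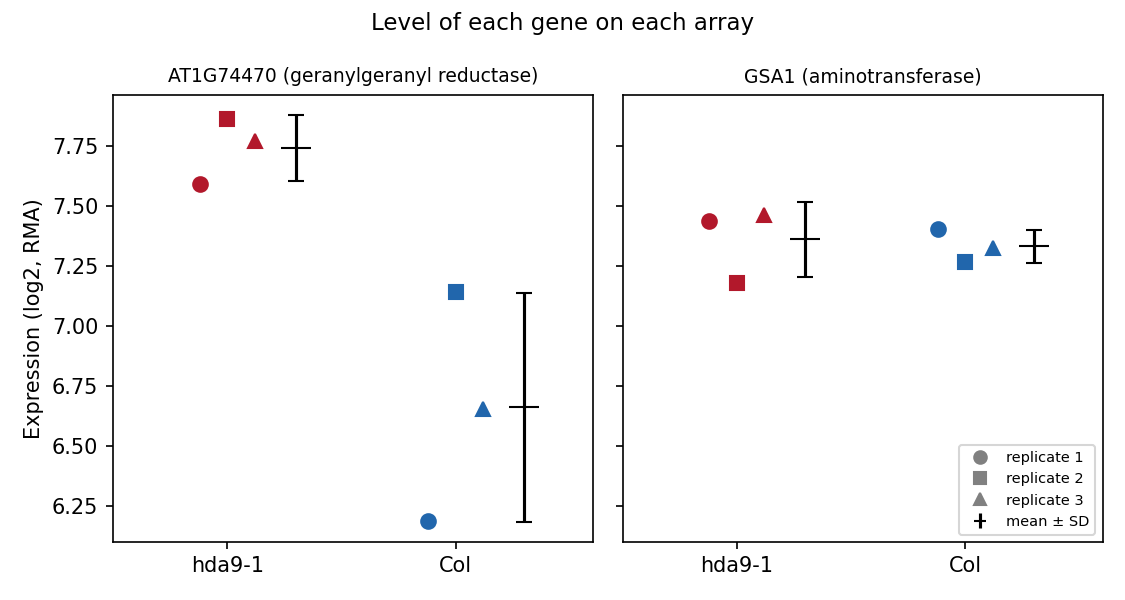
Log2 expression of AT1G74470 (left panel) and GSA1 (right panel) on the 3 hda9-1 and 3 Col arrays, with marker shape for the replicate number and a bar for the mean ± SD. All 3 hda9-1 values of AT1G74470 lie above all 3 Col values, whereas those of GSA1 overlap; levels of different probe sets cannot be compared with each other.

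In limma, fitted to all 6 arrays with Benjamini-Hochberg adjustment across all probe sets, AT1G74470 had an adjusted p of 0.0439 and GSA1 one of 0.932. Thus 1 of the 2 genes passed the threshold of 0.05, where 1.37% of all probe sets passed as higher and 3.82% in either direction. Groups that do not overlap, with hda9-1 higher, were found at 11.6% of all probe sets. These values took part in choosing AT1G74470, and nothing is read from them. The adjusted p of AT1G74470 lay between 0.0896 and 0.139 when any array other than Col replicate 2 was left out, and was 0.0178 without Col replicate 2.

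**Figure D2:**
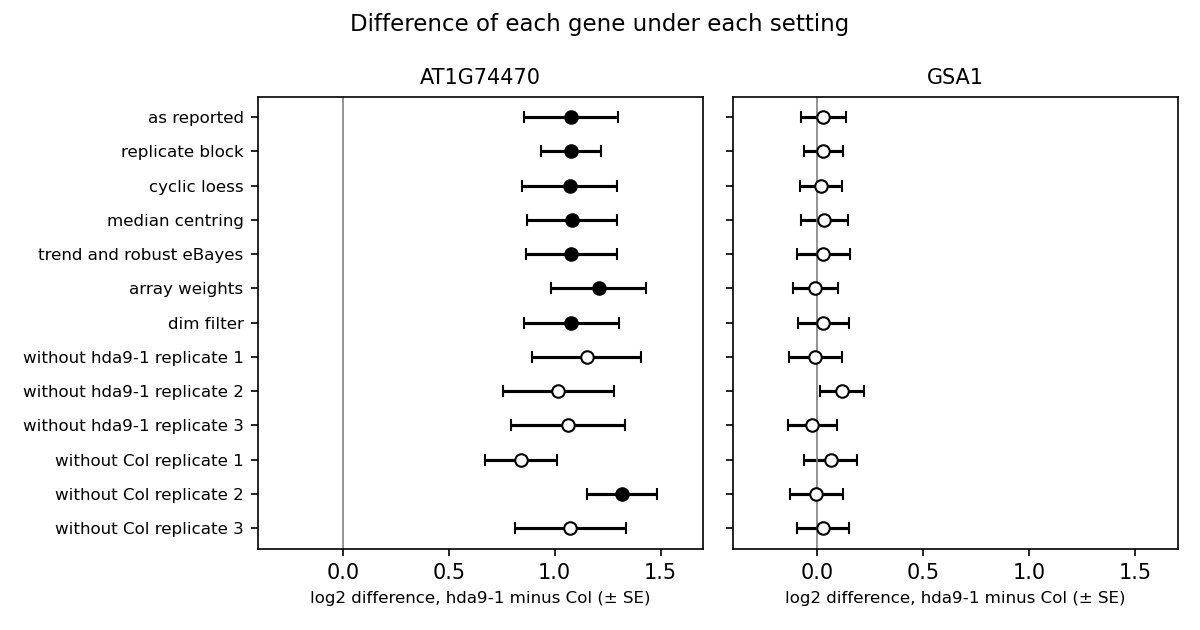
Log2 difference (hda9-1 minus Col, ± SE) of AT1G74470 (left panel) and GSA1 (right panel) as reported and under each alternative setting, filled where the limma adjusted p was under 0.05. AT1G74470 ranges from 0.84 to 1.32 and GSA1 from −0.02 to 0.12.

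The genes also differed in how much they varied within a genotype. For AT1G74470 the 3 Col arrays spanned 0.95 log2 units and the 3 hda9-1 arrays 0.27, so that the mutant arrays were the tighter group. The SD in Col was larger than that of 96.9% of all probe sets, while the SD in hda9-1 was larger than that of 57.7%. The spread in Col came from replicate 1, which was 0.47 below the Col mean, and replicate 2, which was 0.48 above it. Without Col replicate 1 the difference was 0.84, and without Col replicate 2 it was 1.32. GSA1 had the opposite order of spread, with 0.28 log2 units across the hda9-1 arrays and 0.14 across the Col arrays, and its SD in Col was larger than that of 18.7% of all probe sets. With 3 arrays a group these spreads were not tested.

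Col replicate 3 had the largest excess of 3′ over 5′ signal for actin, ubiquitin and GAPDH, and the highest level of the ribosomal RNA control. The 3′ probe set of actin exceeded the 5′ one by 1.17 to 1.28 log2 units in the hda9-1 arrays, against 0.96, 1.03 and 1.58 in Col replicates 1, 2 and 3. The corresponding excess for ubiquitin was 0.64 to 0.69 in hda9-1, against 0.62, 0.61 and 0.87 in Col replicates 1, 2 and 3. For GAPDH it was 0.30 to 0.54 in hda9-1, against 0.36, 0.33 and 0.61 in Col replicates 1, 2 and 3, so that Col replicate 3 was close to the highest mutant array. The large-subunit ribosomal RNA control read 11.05 to 11.35 in hda9-1, against 11.33, 11.43 and 12.17 in Col replicates 1, 2 and 3. The actin and ubiquitin excesses of all 3 hda9-1 arrays lay above those of Col replicates 1 and 2, but not all did for GAPDH. Col replicate 3 held the middle of the 3 Col values of both AT1G74470 and GSA1. Without Col replicate 3 the differences were 1.07 for AT1G74470 and 0.02 for GSA1. Whether RNA quality had a part in the difference of AT1G74470 was not tested.

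Of the seed markers, 2 of 14 had a probe set with 1 gene. PAP85, a vicilin-like storage protein gene, read 14.20 to 14.26 in hda9-1 and 14.16 to 14.28 in Col. The highest value in these data was 14.94, so PAP85 lay near the top of the scale. The oleosin gene OLEO3 read 9.28 to 9.63 in hda9-1 and 9.73 to 10.22 in Col, a log2 difference of −0.61 (SE 0.16, limma adjusted p = 0.0805, or 0.0291 with the replicate number as a block, a fit in which 6.39% of all probe sets passed). Of 8 markers of the silique wall, 2 had such a probe set, and their differences had opposite signs. The dehiscence gene ADPG1 was lower, at 12.22 to 12.49 in hda9-1 against 12.81 to 12.85 in Col (log2 difference −0.51, SE 0.10, limma adjusted p = 0.0399). In the same fit 2.45% of all probe sets passed as lower. The call of ADPG1 held in 1 of the 6 fits that left out an array. The valve margin gene ALC read 6.56, 6.90 and 6.46 in hda9-1, against 5.90, 6.40 and 6.44 in Col (log2 difference 0.39, SE 0.18, limma adjusted p = 0.285). Neither of these markers was absent, and their part in the difference of AT1G74470 was not tested. In such bulk samples fewer cells of a type and less RNA per cell cannot be told apart.

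The rest of the chlorophyll pathway was followed through a list of 30 other genes, of which 12 had a probe set with 1 gene. In the limma fit of all 6 arrays with genotype as the only term, none passed. None had an unadjusted p under 0.05 in that fit, whereas 4369 of all 22746 probe sets did. Of the 12, 8 had a positive and 4 a negative log2 difference, against 11095 and 11651 among all probe sets. The median was 0.08, against −0.0048 over all probe sets. The differences ran from −0.27 to 0.39, and the adjusted p from 0.349 to 0.997. The 95% intervals all included 0, and their upper bounds were 0.04 to 0.97, and 4 of them (CHLM, PORB, LIL3:1 and LIL3:2) exceeded 0.56, the lower bound for AT1G74470.

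The first committed step is catalysed by glutamyl-tRNA reductase, just before GSA1. HEMA2, one of its genes, read 7.02, 7.21 and 7.18 in hda9-1 and 7.11, 7.25 and 7.78 in Col, a log2 difference of −0.24 (SE 0.17), which was −0.04 without Col replicate 3 and −0.38 without Col replicate 1. HEMA3 stood at 0.03 (SE 0.12). The paralogue GSA2 had no probe set with 1 gene in the annotation used here, and whether the GSA1 probe set also detects GSA2 was not tested.

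Genes of the ring-building steps lay on both sides of 0. HEMB1, which encodes aminolevulinic acid dehydratase and so uses the product of GSA1, read 7.37, 7.60 and 7.93 in hda9-1 and 7.86, 7.94 and 7.91 in Col, a log2 difference of −0.27 (SE 0.14). Its mutant arrays were spread over a wide range and the Col arrays were close together. The difference of HEMB1 was −0.14 without hda9-1 replicate 1 and −0.41 without hda9-1 replicate 3, where the unadjusted p was 0.00829 and the limma adjusted p did not pass. HEMB2 stood at −0.13 (SE 0.09) and HEMF2, a coproporphyrinogen oxidase gene, at −0.20 (SE 0.10). These were the only list members whose genotypes did not overlap, a pattern found in either direction at 23.8% of all probe sets. Both were dim. HEMB2 read 3.98 to 4.04 in hda9-1 and 4.08 to 4.23 in Col, and HEMF2 read 3.89 to 4.09 in hda9-1 and 4.11 to 4.33 in Col. The uroporphyrinogen decarboxylase genes HEME1 and HEME2 stood at 0.0024 (SE 0.12) and 0.13 (SE 0.10).

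Of the magnesium branch, only CHLM, CHLI2 and PORB had a probe set with 1 gene in the annotation used here. Other listed genes such as CHLD, GUN5 and CHLI1 had none there, and whether the array detects them was not examined. The estimates of CHLM, CHLI2 and PORB were positive, as were those of 11095 of all 22746 probe sets, and none of these genes passed. CHLM, the methyltransferase that acts after magnesium insertion, read 5.40, 6.13 and 5.54 in hda9-1 and 4.84, 5.43 and 5.64 in Col, a log2 difference of 0.39 (SE 0.25). The groups overlapped, since Col replicate 3 lay above 2 of the mutant arrays and Col replicate 2 above 1 of them. The estimate was 0.16 without Col replicate 1 and 0.17 without hda9-1 replicate 2. It was the highest of the list with all 6 arrays but lay below that of LIL3:2 in both of these fits (0.26 and 0.30) and without Col replicate 2 (0.45 for CHLM, 0.52 for LIL3:2). CHLI2, a magnesium chelatase subunit gene, stood at 0.14 (SE 0.13), with 0.06 to 0.27 when single arrays were left out. It was dim, at 3.48 to 3.90 over all arrays. PORB, a light-dependent protochlorophyllide oxidoreductase gene, read 5.75, 5.88 and 5.52 in hda9-1 and 5.03, 5.95 and 5.63 in Col, a log2 difference of 0.18 (SE 0.23) that was −0.07 without Col replicate 1.

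LIL3:1 and LIL3:2 encode light-harvesting-like membrane proteins that bind geranylgeranyl reductase, and are thus the closest partners of AT1G74470 in the list. LIL3:2 read 6.72, 6.74 and 6.64 in hda9-1 and 6.26, 6.76 and 6.11 in Col, a log2 difference of 0.32 (SE 0.16, limma adjusted p = 0.349). As for AT1G74470, its Col arrays were more spread (SD 0.34) than its mutant arrays (SD 0.05), but Col replicate 2 lay above all 3 mutant arrays. The difference of LIL3:2 was 0.52 without Col replicate 2, where limma gave an unadjusted p of 0.00188 and an adjusted p of 0.0504. It was 0.19 without Col replicate 3, where the unadjusted p was 0.262. With the replicate number as a block, limma gave LIL3:2 an unadjusted p of 0.0483 and an adjusted p of 0.216. LIL3:1 read 5.55, 4.79 and 5.49 in hda9-1 and 5.10, 5.44 and 4.85 in Col, a log2 difference of 0.15 (SE 0.23). Here the lowest of the 6 values belonged to the mutant. Leaving out hda9-1 replicate 2 gave 0.39 and leaving out hda9-1 replicate 1 or 3 gave 0.01 and 0.04. The difference was 0.30 without Col replicate 2 and 0.0068 without Col replicate 3.

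**Figure D3:**
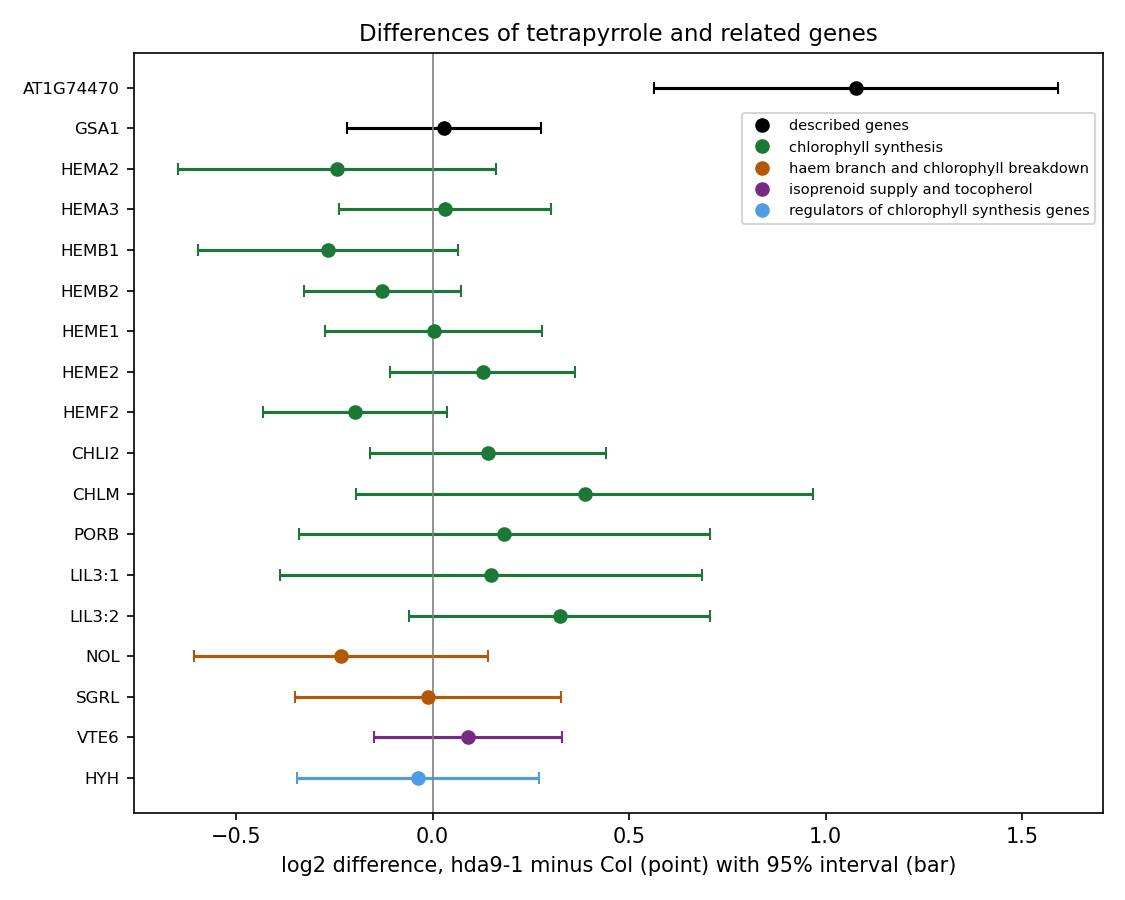
Log2 difference (hda9-1 minus Col, limma, point) with its 95% interval (bar) for AT1G74470, GSA1 and the 16 other measured genes of the 4 lists. Of all genes drawn, AT1G74470 has the only interval that excludes 0, from 0.56 to 1.59, and it was chosen with that contrast known.

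The order of the Col arrays in AT1G74470 was counted in the 12 list genes. Col replicate 1 was the lowest Col array for 5 of the 12 list genes and for 27% of all probe sets. Col replicate 2 was the highest for 6 of the 12 and for 29.2% of all probe sets. Both held, as in AT1G74470, for 3 of the 12 (HEMB1, HEMB2 and PORB) and for 11.4% of all probe sets. The Col arrays of AT1G74470 read 6.19 to 7.14 and those of PORB 5.03 to 5.95. Those of HEMB1 and HEMB2 were close together, at 7.86 to 7.94 and 4.08 to 4.23. The SD was larger in Col than in hda9-1 for 9 of the 12 and for 56.7% of all probe sets. These are counts of a pattern noticed in these arrays and carry no test.

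Side branches were thinly covered in the annotation used here. Of 19 genes of the haem branch and of chlorophyll breakdown, 2 had a probe set with 1 gene. NOL, a chlorophyll b reductase gene, read 7.07, 6.72 and 6.81 in hda9-1 and 7.22, 7.30 and 6.78 in Col, a log2 difference of −0.23 (SE 0.16, limma adjusted p = 0.515), with −0.39 without Col replicate 3 and −0.13 without Col replicate 2. SGRL, of the family of magnesium dechelatases, stood at −0.01 (SE 0.15). Genes of isoprenoid supply and tocopherol synthesis provide the substrate or use the product of geranylgeranyl reductase. Of 15 such genes, 1 had a probe set with 1 gene. This was VTE6, a phytyl phosphate kinase gene, at 0.09 (SE 0.10). Of 8 regulators of chlorophyll synthesis genes, the bZIP factor gene HYH was the 1 with such a probe set, at −0.04 (SE 0.13). With all 6 arrays none of these 4 genes passed in limma, and none had an unadjusted p under 0.05.

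Profiles over the 6 arrays were compared by the root mean square difference, in log2 units, after each gene's own mean over the 6 arrays was removed. AT1G74470 and GSA1 were 0.63 apart. Of the 13512 other probe sets with 1 gene, 6793 were closer to AT1G74470 than GSA1 was. Seen from GSA1, 13353 were closer to it than AT1G74470 was. The 5 closest to AT1G74470 were ALDH11A3 (0.12), PSAE-1 (0.15), AT3G04760 (0.15), CRT1b (0.18) and AT4G16410 (0.19). ALDH11A3 encodes a non-phosphorylating glyceraldehyde phosphate dehydrogenase, PSAE-1 a subunit of photosystem I and CRT1b a calreticulin of the endoplasmic reticulum.

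ALDH11A3 read 7.16, 7.67 and 7.49 in hda9-1 and 6.03, 7.01 and 6.25 in Col, with the arrays of each genotype in the same order as for AT1G74470. PSAE-1 read 9.13, 9.28 and 9.00 in hda9-1 and 7.91, 8.58 and 8.11 in Col. In all 5 genes, as in AT1G74470, Col replicate 1 was the lowest array, Col replicate 2 the highest Col array, and the genotypes did not overlap, with hda9-1 higher, as at 11.6% of all probe sets. Their log2 differences were 0.90 to 1.01. The choice by likeness to AT1G74470 largely fixes these differences, the array order and the lack of overlap. The 5 profiles closest to GSA1 were those of AT2G27610, AT2G46940, AT3G43280, AT1G31720 and AT5G60820, at 0.03 each. Those profiles were nearly flat, with log2 differences from −0.0016 to 0.07. All but AT5G60820 read only 3.34 to 4.22, below the median level of all tested probe sets (5.44), whereas GSA1 read 7.18 to 7.46.

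**Figure D4:**
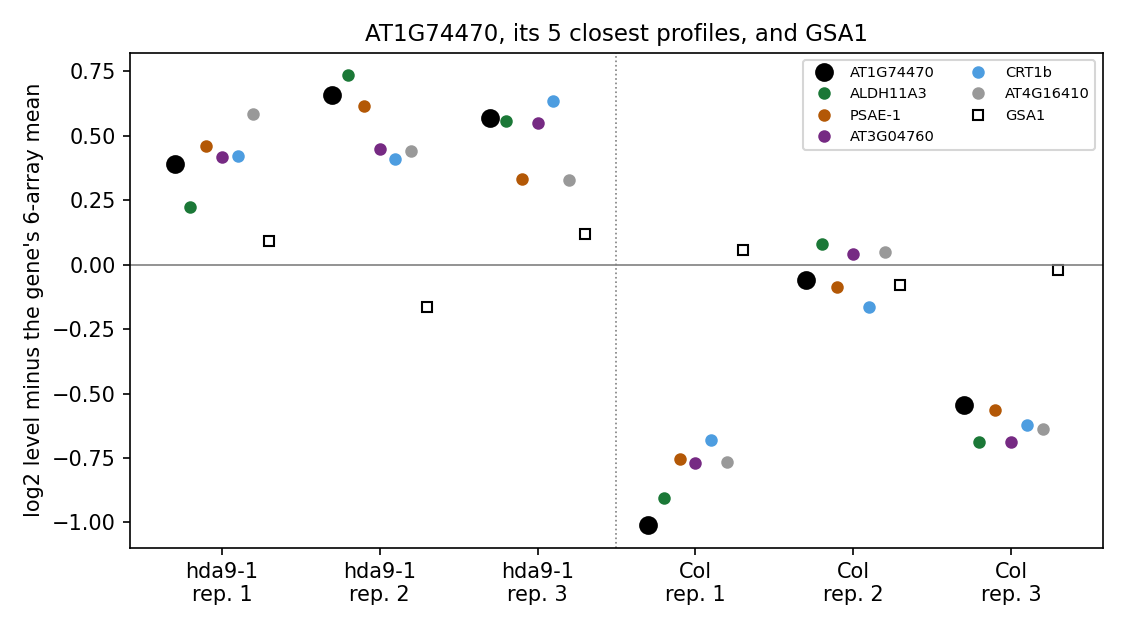
Log2 level minus each gene's mean over the 6 arrays, for AT1G74470 (large filled circles), the 5 genes of closest profile (small filled circles) and GSA1 (open squares), with the hda9-1 arrays left of the Col arrays. AT1G74470 and its closest profiles are above 0 on the hda9-1 arrays and lowest on Col replicate 1, whereas GSA1 stays near 0 on all arrays.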

How the data were processed

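Total RNA of 3 hda9-1 and 3 Col samples was hybridised to Affymetrix ATH1 arrays. The authors deposited 1 table of log2 values per probe set, and RMA, affy and limma are named, with no version, per the submitters' processing notes. RMA corrects background, equalises the arrays' distributions and compresses the differences of dim probe sets. Arrays carry no read count, so precision is limited by the number of arrays. Of 22810 probe sets, 64 controls were left out. Of the 22746 tested, 13513 had 1 gene in the platform annotation, 503 several and 8730 none there. Gene names follow the TAIR10.1 gene table, matched by Entrez identifier. Because no build is stated for the arrays, no coordinates are given.

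All 6 arrays entered 1 limma fit (limma 3.58.1, R 4.3.3, eBayes without trend) with genotype as the only term, Benjamini-Hochberg adjustment over all tested probe sets and a threshold of 0.05. The fit was tested on simulated data. Across probe sets, which are not independent, the deviations of same-numbered arrays from their group means had r of 0.34 for number 1, 0.21 for number 2 and 0.21 for number 3. All exceeded the limit of 0.1, so a fit with the number as a block was run as an alternative to the unpaired one. With 3 arrays a group, deviations from the group mean are tied to each other, so these r do not establish pairs. Another matching of the arrays also had positive r throughout, from 0.0090 to 0.094. In the block fit AT1G74470 had a log2 difference of 1.08 (SE 0.14, limma adjusted p = 0.0172), where 6.39% of all probe sets passed. Each list gene had 1 probe set. The members and lists were chosen with earlier results of these data known. Named were both members, every measured gene of the 4 lists and the 5 closest profiles of each member. The marker lists covered seed and silique wall.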

Additional observations from a re-analysis of the deposited data

How the results depend on the processing

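The log2 difference of AT1G74470 kept its sign in all 12 alternatives, from 0.84 to 1.32 when single arrays were left out. Its groups do not overlap, so leaving out or weighting arrays could not turn the sign. The gene was also chosen with this contrast known. It passed the threshold in all 6 alternatives that kept every array and in 1 of the 6 that left one out. Fewer samples enter the fits that left one out. GSA1 passed in none, and its sign was not stable, at −0.0097 with array weights and from −0.023 to 0.12 without single arrays. Among other genes, signs turned for HEME1 with array weights (−0.083) and for SGRL after cyclic loess (0.0073). Without single arrays, HEMA3 ranged from −0.055 to 0.13, HEME1 from −0.074 to 0.093, PORB from −0.072 to 0.39, SGRL from −0.093 to 0.13 and HYH from −0.13 to 0.072. No list gene passed in any alternative run, including the replicate block. Over all probe sets 870 passed, against 1453 with the replicate block (6.39% of those tested), 1496 with array weights and 92 to 834 without single arrays. Among the pair, the lists, the markers and the neighbouring genes, the block changed the call of OLEO3 and no other. Averaging over the probe sets of a gene was not run, because each gene had 1. HEMA3, HEMB2, HEMF2, CHLI2, LIL3:1, SGRL and HYH did not pass the filter on dim probe sets and have no value there.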

Other observations

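Genes next to the pair on the chromosome, within 5 protein-coding genes on either side in the TAIR10.1 gene table, were looked up after the other results were seen. Of 10 such genes around each, 5 around AT1G74470 and 2 around GSA1 had a probe set with 1 gene. None of these passed in limma over all probe sets. AT1G74460, the direct neighbour of AT1G74470, read 5.81, 6.08 and 6.14 in hda9-1 and 5.51, 5.88 and 5.48 in Col, a log2 difference of 0.39 (SE 0.14, adjusted p = 0.184). The other 4 around AT1G74470 stood at −0.21 to 0.19, and the lowest of them, AT1G74510, had groups that did not overlap, with hda9-1 lower. AT5G63520, near GSA1, stood at 0.21 (SE 0.12). FACT, the direct neighbour of GSA1 and an acyltransferase gene of alkyl caffeate synthesis, read 6.76, 7.71 and 7.57 in hda9-1 and 6.42, 6.31 and 5.81 in Col. Its groups did not overlap either, with hda9-1 higher, a pattern found at 11.6% of all probe sets, and in either direction at 23.8%. Its log2 difference was 1.16 (SE 0.27, adjusted p = 0.0591).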
